A study of Danio rerio with 8 samples.

Results

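The genes described here were grouped as beta-adrenergic and adenylyl cyclase genes. They include the receptor genes *adrb1* and *adrb3a* and the G protein genes *gnas* and *gng13b*. The others are the adenylyl cyclase genes *adcy5*, *adcy6a*, *adcy6b* and *adcy9* and the protein kinase A gene *prkacaa*. Whether *gng13b* serves beta-adrenergic receptors in these cells was not tested. These 9 genes were taken by gene ID or symbol from a table of 31388 genes. The rows of *adcy6a* and *adrb3a* were assigned by elimination, since the table gives them only by a shared or human-style symbol. The set was put together with the differences of *adcy6b* and *gng13b* between the 2 cell populations known, so the values of all members in this comparison are a description and carry no test.

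In heart muscle, beta-adrenergic receptors that bind noradrenaline or adrenaline activate the stimulatory G protein, whose alpha subunit is encoded by *gnas*. This subunit turns on adenylyl cyclases at the cell membrane, which make cyclic AMP (cAMP), and cAMP releases the catalytic subunits of protein kinase A (PKA) that phosphorylate calcium channels and other proteins of contraction. In mammals the kinds made by the ADCY5 and ADCY6 genes are the main cyclases of the cardiomyocyte. The beta and gamma subunits released beside the alpha subunit have targets of their own.

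RNA-Seq was measured in *tbx5a*+ and *tbx5a*- cardiomyocytes of the adult zebrafish ventricle, 4 libraries of each population, numbered 2, 8, 9 and 10. The fish carried 2 transgenes, a *tbx5a* bacterial artificial chromosome reporter that drives GFP and a *myl7* promoter that drives a nuclear dsRed in cardiomyocytes. Sorted GFP+/nuc-dsRed+ cells were the *tbx5a*+ population and GFP-/nuc-dsRed+ cells the *tbx5a*- population, so both groups carry both reporters, and no mutation or treatment is named for either. Each replicate was a pool of 5 hearts of fish aged 6 to 9 months, from which the atrioventricular canal had been removed. Libraries with the same number were taken as a pair sorted from 1 pool, an inference from the shared number. Each library started from 0.6 ng of total RNA and went through 2 rounds of amplification.

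The values are normalized signals per gene, on a scale where 1 read is worth 0.859 to 1.19, so a library held an estimated 8076540 to 9491728 reads in *tbx5a*+ cells and 7149173 to 9203787 reads in *tbx5a*- cells. Genes above 0 numbered 13706 to 14983 in *tbx5a*+ libraries and 11329 to 13793 in *tbx5a*- libraries, with *tbx5a*- libraries 9 and 2 the lowest of all. The sorted gene itself, *tbx5a*, had values of 3197 to 4919 in *tbx5a*+ libraries and 90.5 to 442 in *tbx5a*- libraries, and the cardiomyocyte gene *myl7* differed by -0.03 on the log2 scale. The summed level of 11 cardiomyocyte marker genes, *myl7* among them, was 409900 to 485000 in *tbx5a*+ libraries and 406700 to 472900 in *tbx5a*- libraries. In such bulk samples, fewer cells of a type and less RNA per cell cannot be told apart.

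The differences below are log2 fold changes of value + 1, *tbx5a*+ over *tbx5a*-, from limma across the 13895 genes with at least 1 CPM (reads scaled to a common total) in at least 2 libraries. A gene was called where the adjusted p was at most 0.05 and the log2 difference at least 1 in size. The median over all these genes was 0.20, and 61.3% of them were above 0. Of the 9 members, 8 passed this filter and 5 of these 8 had a log2 fold change above 0. Values are not scaled to transcript length, so they compare a gene between libraries. Genes named below as having the highest mean value of a class were picked by that value, which is no ranking of their transcripts.

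The set was put together with the differences of 2 members, *gng13b* and *adcy6b*, known. *gng13b*, a G protein gamma subunit, was lower in every *tbx5a*+ library than in any *tbx5a*- library, as were 1.65% of all tested genes. *adcy6b*, an adenylyl cyclase, was higher in *tbx5a*+ cells within each of the 4 pairs, as were 9.54% of all tested genes. Its groups overlapped. limma called 1 member lower (*gng13b*) and none higher. Over all tested genes 0.187% were called lower, 0.00720% higher and 0.194% in either direction, and nothing is read from this because the genes were chosen from this comparison. With the pair as a block, 2 members were called (*adcy6b* higher and *gng13b* lower). That fit called 0.137% of all genes higher, 0.281% lower and 0.417% in either direction. limma-voom called 0 of the 8, where it called 0.0216% of all genes higher, 0.151% lower and 0.173% in either direction. Nothing is read from the calls of these fits either.

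**Figure D1:**
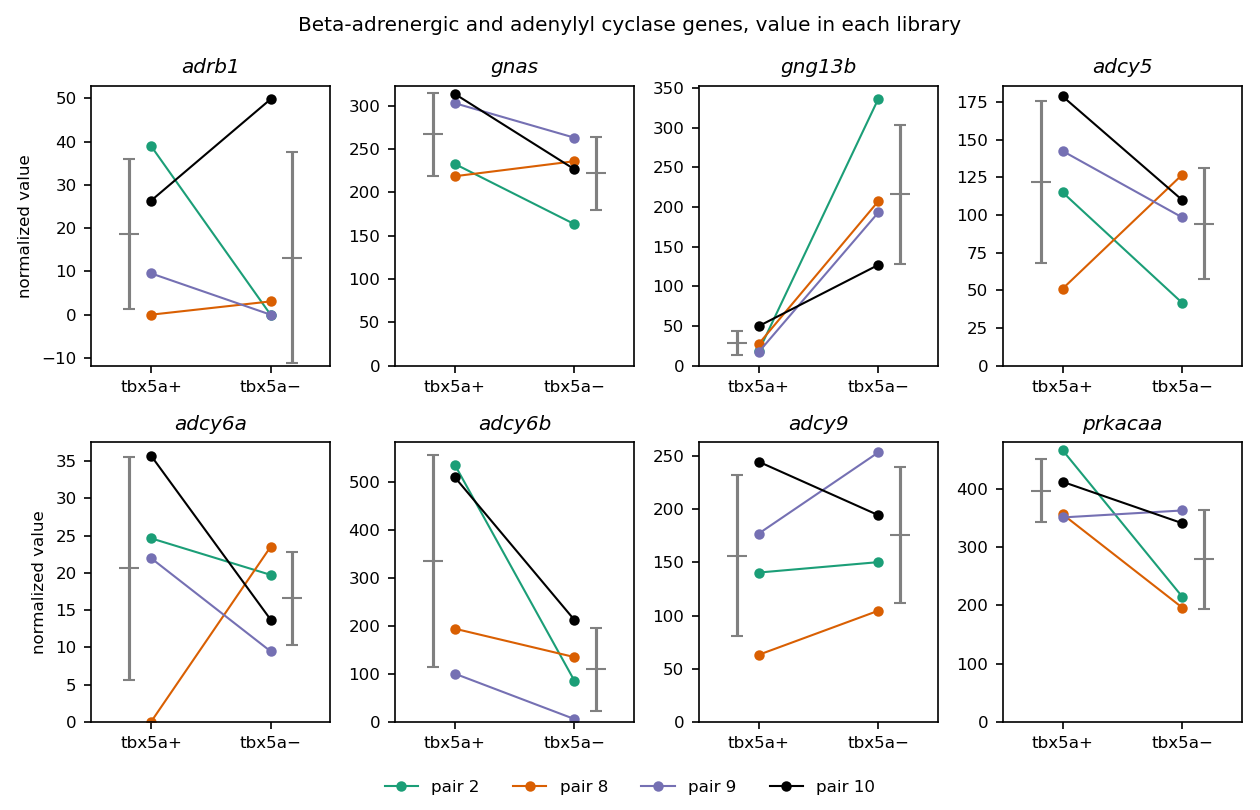
Normalized value (vertical axis, 1 panel per gene with its own scale) of the 8 members above the filter in *tbx5a*+ (left) and *tbx5a*- (right) cells. Coloured lines join each pair of libraries with the same number, and grey bars give the mean ± SD of 4 libraries. Only *gng13b* has no overlap between the populations, with 17.2 to 49.9 in *tbx5a*+ and 127 to 337 in *tbx5a*- cells, while *adcy6b* is higher at the *tbx5a*+ end of all 4 lines.

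The beta-adrenergic receptors *adrb1* and *adrb3a* rested on few reads or none in both populations. *adrb1* (ENSDARG00000007490), the beta-1 receptor and the main beta receptor of mammalian cardiomyocytes, had values of 39.0, 0, 9.56 and 26.3 in *tbx5a*+ libraries 2, 8, 9 and 10, against 0, 3.07, 0 and 49.8 in *tbx5a*- libraries 2, 8, 9 and 10. The highest value of *adrb1* was that of *tbx5a*- library 10, both populations had libraries at 0, and the groups overlapped over their whole range. The means were 18.7 ± 17.4 in *tbx5a*+ and 13.2 ± 24.4 in *tbx5a*- cells (SD, n = 4 each), from an estimated 76 reads in *tbx5a*+ and 61 reads in *tbx5a*- libraries in all. The pairs went both ways, with log2 differences of 5.32 and 3.40 in pairs 2 and 9 and of -2.03 and -0.89 in pairs 8 and 10. The fitted value of *adrb1* was 1.45 (SE 1.55). It was -0.47 without *tbx5a*- libraries 2 and 9, the *tbx5a*- libraries in which the gene stood at 0, so leaving them out had to lower it.

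*adrb3a* (ENSDARG00000053646), the beta-3 receptor, was at 0 in all 8 libraries, where 3 reads, the limit that a count of 0 allows, would be worth 2.58 to 3.56 per library. These limits cover counting error only. In all, 11390 of the 31388 genes were at 0 in every library. A 0 here or below is therefore not read as absence of the transcript. Its paralog *adrb3b* was above 0 in *tbx5a*+ library 9 (4.78) and *tbx5a*- library 10 (4.29), at 5 reads each, and did not pass the filter.

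Between the receptors and the cyclases, *gnas* was among the most even members. *gnas* (ENSDARG00000043094), the stimulatory alpha subunit, had values of 233, 219, 303 and 314 in *tbx5a*+ libraries 2, 8, 9 and 10, against 163, 236, 263 and 227 in *tbx5a*- libraries. It was higher in *tbx5a*+ cells in pairs 2, 9 and 10 by 0.51, 0.20 and 0.47 on the log2 scale and lower in pair 8 by a difference of -0.11. The means of 267 ± 48.2 in *tbx5a*+ and 222 ± 42.2 in *tbx5a*- cells (SD, n = 4 each) overlapped within 1 SD, and the fitted log2 fold change was 0.27 (SE 0.32), close to the median of 0.20 over all genes.

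*gng13b* (ENSDARG00000037921), whose mammalian counterpart is best known from taste, olfactory and retinal cells, had values of 18.5, 27.5, 17.2 and 49.9 in *tbx5a*+ libraries 2, 8, 9 and 10, against 337, 207, 193 and 127 in *tbx5a*- libraries. Its highest *tbx5a*+ value and its lowest *tbx5a*- value were both those of pair 10, and they were still apart. Over all tested genes, the groups did not overlap in 3.97%, with the *tbx5a*+ side lower in 1.65%, and 5.38% were lower in *tbx5a*+ cells in 4 of 4 pairs. The means were 28.3 ± 15.1 in *tbx5a*+ and 216 ± 87.7 in *tbx5a*- cells (SD, n = 4 each), so the *tbx5a*- mean was 7.65 times the *tbx5a*+ mean, on 117 reads in *tbx5a*+ and 821 reads in *tbx5a*- libraries. The pairs differed by -4.12, -2.87, -3.42 and -1.33 on the log2 scale in pairs 2, 8, 9 and 10, and the fitted value was -2.93 (SE 0.55). Leaving out 1 library at a time moved this value between -3.24 and -2.69. The call was lost without *tbx5a*- library 2 (-2.69), without *tbx5a*- library 8 (-2.92), without both *tbx5a*- libraries 2 and 9 (-2.61) and with limma-voom (-2.92). All these fits use libraries that the gene was chosen from, so no support is drawn from the calls.

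The levels of markers of other cell types are given beside *gng13b*, whose mammalian counterpart is known from neurons. Of 13 neuron and glia markers none passed the filter, 6 were at 0 in every library, and *elavl3* was at 0 except for 10.3 in *tbx5a*- library 10. Their sum was 2.93 to 31.5 in *tbx5a*+ and 5.94 to 21.9 in *tbx5a*- libraries, and its part in the result was not tested. Most of the tested smooth muscle and mural markers moved in the direction of *gng13b*. Of 8 such genes, 6 were tested. DES, which cardiomyocytes express strongly, was on the planned list and was left out of these 8. Of the 6, 1 had a log2 fold change above 0 and 2 were called lower, where 0.187% of all tested genes were called lower. The 8 genes had a sum of 199.8 to 545 in *tbx5a*+ and 563 to 2845 in *tbx5a*- libraries. With DES the sums overlapped, at 14710 to 16640 in *tbx5a*+ and 15120 to 17880 in *tbx5a*- libraries. *acta2*, smooth muscle actin, had values of 3.29, 0, 0 and 5.84 in *tbx5a*+ libraries 2, 8, 9 and 10 and of 284, 111, 518 and 189 in *tbx5a*- libraries. Among *tbx5a*- libraries, *acta2* was highest in library 9 and *gng13b* in library 2. Whether the *acta2* reads came from smooth muscle cells or from the sorted cardiomyocytes was not tested. The part of smooth muscle cells in the result was not tested either. The paper lists actin cytoskeleton genes among those specific to *tbx5a*- cardiomyocytes. The defining genes *tcf21* (epicardium), *hbaa1* (erythrocytes) and *itga2b* (thrombocytes) were at 0 in all 8 libraries, but other markers of their lists were detected. The epicardial markers summed to 79.5 to 162 in *tbx5a*+ and 69.0 to 218 in *tbx5a*- libraries, the erythrocyte markers to 12.8 to 26.8 in *tbx5a*+ and 0 to 26.3 in *tbx5a*- libraries, and the thrombocyte markers to 13.2 to 17.2 in *tbx5a*+ and 0 to 45.0 in *tbx5a*- libraries. Fibroblast markers summed to 47.3 to 101 in *tbx5a*+ libraries and to 279.8, 24.7, 49.65 and 84.4 in *tbx5a*- libraries 2, 8, 9 and 10. Leukocyte markers summed to 7.64 to 35.7 in *tbx5a*+ libraries and to 256, 50.1, 2.37 and 33.5 in *tbx5a*- libraries 2, 8, 9 and 10. Endothelial markers summed to 118 to 219 in *tbx5a*+ libraries and to 232, 148, 149 and 287 in *tbx5a*- libraries 2, 8, 9 and 10. Among *tbx5a*- libraries, *gng13b* was highest in library 2 and lowest in library 10. The part of these cell types in the result was not tested.

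*adcy6b* (ENSDARG00000027797) is 1 of the 2 zebrafish counterparts of mammalian ADCY6, a cyclase that calcium and the inhibitory G protein hold back. Its values were 535, 194, 100.4 and 509 in *tbx5a*+ libraries 2, 8, 9 and 10, against 85.5, 135, 5.93 and 212 in *tbx5a*- libraries. In each pair the *tbx5a*+ library was higher, but *tbx5a*- library 10 was above *tbx5a*+ libraries 8 and 9, so the groups overlapped. Over all tested genes, 9.54% were higher in *tbx5a*+ cells in 4 of 4 pairs and 14.9% went the same way in 4 of 4 pairs. The means of *adcy6b* were 335 ± 220.0 in *tbx5a*+ and 109.6 ± 86.6 in *tbx5a*- cells (SD, n = 4 each), a ratio of 3.05, with coefficients of variation of 65.8% in *tbx5a*+ and 79.0% in *tbx5a*- cells.

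The *adcy6b* difference was largest in pairs 2 and 9. The log2 differences were 2.63, 0.52, 3.87 and 1.26 in pairs 2, 8, 9 and 10, and the fitted value was 2.07 (SE 0.73, or 0.46 with the pair as a block). In *tbx5a*- library 9, the library with the fewest genes above 0, the value rested on an estimated 5 reads, against 78 to 247 in the other *tbx5a*- libraries. Without that library the log2 fold change of *adcy6b* was 1.0, and without *tbx5a*- library 2 alone it was 2.21. Without both *tbx5a*- libraries 2 and 9 the log2 fold change of *adcy6b* was 0.67. That fit was added after the data were seen. These libraries held the lowest *tbx5a*- values of *adcy6b*, so leaving them out had to shrink the difference, and nothing is read from it. *adcy6b* was called in 1 of the 19 fits that were run, the fit with the pair as a block. Its direction was the same in all 19, which all used libraries that the gene was chosen from.

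**Figure D2:**
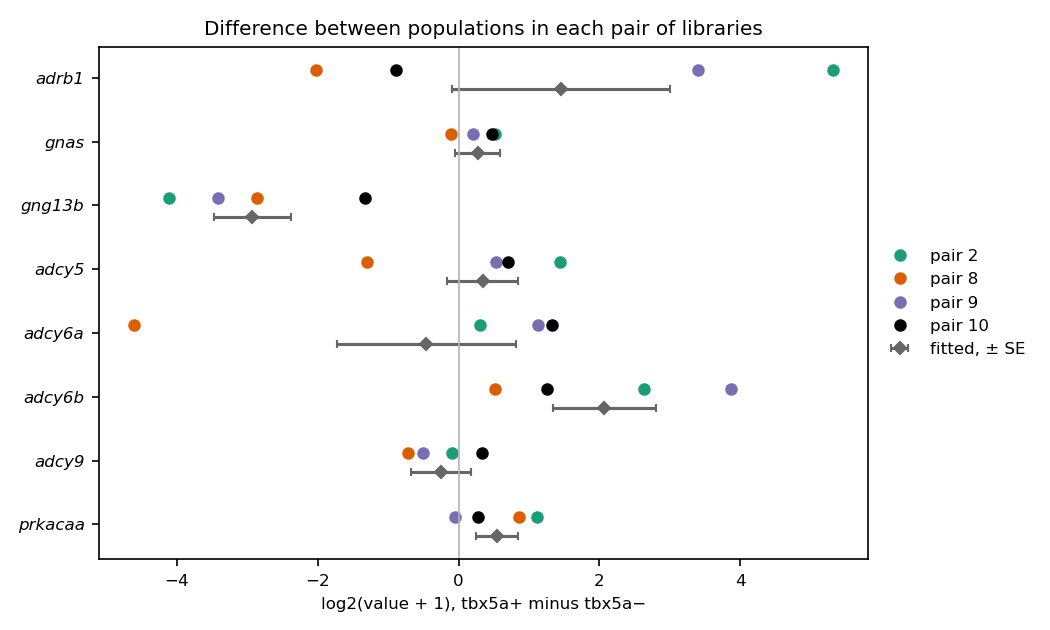
Difference in log2(value + 1), *tbx5a*+ minus *tbx5a*-, for each of the 4 pairs (coloured points, horizontal axis) and the fitted log2 fold change with its SE (grey diamonds and bars), 1 row per member in the order receptors, G proteins, cyclases and kinase. The SE is that of the fit without the pair as a block. All 4 points of *gng13b* lie below 0, from -4.12 to -1.33, and all 4 of *adcy6b* above 0, from 0.52 to 3.87, while the other 6 genes have pairs on both sides.

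*adcy6a* (ENSDARG00000061445), the other ADCY6 counterpart, rested on few reads, and a difference between it and *adcy6b* was not tested. Its values were 24.65, 0, 22.0 and 35.75 in *tbx5a*+ libraries 2, 8, 9 and 10, against 19.7, 23.5, 9.48 and 13.7 in *tbx5a*- libraries. It was higher in *tbx5a*+ cells in 3 of 4 pairs and at 0 in *tbx5a*+ library 8, so the ratio of means was 1.24 (20.6 ± 15.0 in *tbx5a*+ and 16.6 ± 6.23 in *tbx5a*- cells, SD, n = 4 each) while the fitted log2 fold change was -0.46 (SE 1.27). Without *tbx5a*+ library 8 it was 0.74. In all, 85 reads in *tbx5a*+ and 65 reads in *tbx5a*- libraries stood behind these values. Across the 8 libraries, which include both populations and differ in depth, *adcy6a* and *adcy6b* had a Pearson correlation of 0.16 on the log2 scale and a Spearman correlation of 0.52.

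*adcy5* (ENSDARG00000091342), a close relative of ADCY6 and likewise held back by the inhibitory G protein, had values of 115, 51.0, 142 and 179 in *tbx5a*+ libraries 2, 8, 9 and 10, against 41.7, 127, 98.4 and 109.9 in *tbx5a*- libraries. It was higher in *tbx5a*+ cells in pairs 2, 9 and 10 and lower in pair 8, with log2 differences of 1.44, 0.53, 0.70 and -1.30 for these pairs. The means were 121.8 ± 53.9 in *tbx5a*+ and 94.2 ± 36.9 in *tbx5a*- cells (SD, n = 4 each) and the log2 fold change was 0.34 (SE 0.51). Without *tbx5a*- library 2 the value was -0.01, so its direction rested on that library.

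*adcy9* (ENSDARG00000100869), a cyclase that in mammals is little stimulated by forskolin, ran slightly the other way. Its values were 140.4, 63.1, 177 and 245 in *tbx5a*+ libraries 2, 8, 9 and 10, against 150.2, 105, 253 and 194 in *tbx5a*- libraries. It was lower in *tbx5a*+ cells in pairs 2, 8 and 9 and higher in pair 10. The means were 156 ± 75.7 in *tbx5a*+ and 176 ± 63.5 in *tbx5a*- cells (SD, n = 4 each), and the fitted log2 difference was -0.25 (SE 0.43). It was 0.13 without *tbx5a*+ library 8 and 0.03 with upper quartile scaling.

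*prkacaa* (ENSDARG00000100349), the catalytic alpha subunit of PKA at the end of this route, had values of 466, 356, 351 and 412 in *tbx5a*+ libraries 2, 8, 9 and 10, against 215, 196, 363 and 341 in *tbx5a*- libraries. All 4 *tbx5a*+ libraries were above *tbx5a*- libraries 2, 8 and 10, and only *tbx5a*- library 9 lay among them. The pairs differed by 1.11, 0.86, -0.05 and 0.27 on the log2 scale in pairs 2, 8, 9 and 10. The means were 396 ± 54.2 in *tbx5a*+ and 279 ± 85.3 in *tbx5a*- cells (SD, n = 4 each), and the fitted log2 difference was 0.55 (SE 0.30), which lay between 0.40 and 0.83 under every alternative.

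Some libraries were low for several members at once. Within the *tbx5a*+ population, library 8 held the lowest value of 5 of the 8 members above the filter (*adrb1*, *gnas*, *adcy5*, *adcy6a* and *adcy9*) and library 9 that of the other 3 (*adcy6b*, *prkacaa* and *gng13b*). The share of all tested genes that were lowest in each library was not counted, so nothing is read from these numbers. Library 8 had an estimated 9299859 reads and 13706 genes above 0, the fewest genes of the *tbx5a*+ libraries though not the fewest reads, and the part of this in the members' low values was not tested. Within the *tbx5a*- population the lowest values were spread over all 4 libraries, with 1 to 3 members each. Across the 8 libraries, the members that went together most closely were *adcy5* and *gnas* (Pearson 0.86, Spearman 0.86), and those most opposed were *prkacaa* and *gng13b* (Pearson -0.73, Spearman -0.60). *adcy6b* was at 0.66 and 0.76 with *adrb1* and at 0.04 and 0.07 with *gnas* by the same 2 measures. These correlations share the libraries, their depth and the 2 populations, and are given without a test.

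The genes whose pattern over the 8 libraries was most like that of *adcy6b* were *acadl*, *serpinb14*, *cngb1a*, *gpam* and *reep1*, with Pearson correlations of log2(value + 1) of 0.991, 0.988, 0.986, 0.984 and 0.982. In all, 160 of the other 13894 tested genes, or 1.15%, had a correlation of at least 0.9. *acadl*, a dehydrogenase of fatty acid oxidation, had values of 1189, 780.4, 638 and 978 in *tbx5a*+ libraries 2, 8, 9 and 10, against 662, 703, 247 and 805 in *tbx5a*- libraries. *gpam*, an acyltransferase at the start of triglyceride synthesis, had values of 558, 386, 277 and 549 in *tbx5a*+ libraries, against 246, 232, 36.75 and 354 in *tbx5a*- libraries. As for *adcy6b*, *tbx5a*+ libraries 2 and 10 were the highest and *tbx5a*- library 9 the lowest. *cngb1a*, a cyclic nucleotide-gated channel subunit, was at 0 in *tbx5a*- library 9 and *reep1*, an endoplasmic reticulum shaping protein, at 1.19. None of the 5 was called, with log2 fold changes of 0.66, 0.49, 2.27, 1.36 and 2.05 for *acadl*, *serpinb14*, *cngb1a*, *gpam* and *reep1* and limma adjusted p of 0.55 to 0.73.

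**Figure D3:**
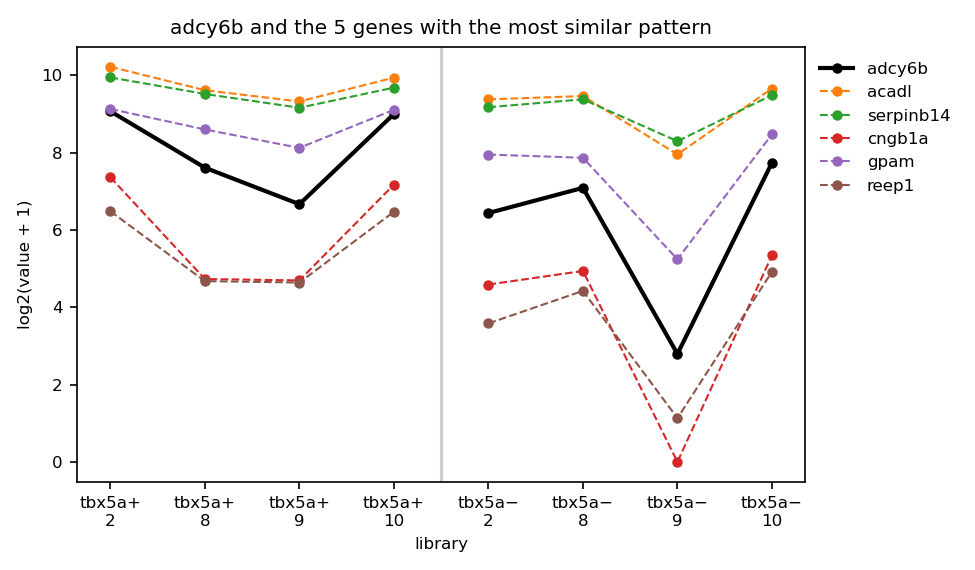
log2(value + 1) (vertical axis) of *adcy6b* (black) and the 5 genes with the highest correlation to it (dashed) in each *tbx5a*+ and *tbx5a*- library, with lines that only join the libraries of a population to guide the eye. All 6 genes are lowest in *tbx5a*- library 9, where *adcy6b* stood at a value of 5.93 and *cngb1a* at 0, and the genes were picked for this likeness.

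The wider cAMP pathway was described by a list of receptors, G protein subunits, cyclases, PKA subunits, anchoring proteins, phosphodiesterases, receptor kinases, RGS proteins and effectors. The list leaves out the members described above. It includes alpha subunits beyond the stimulatory and inhibitory ones, and both genes that raise and genes that lower cAMP. Its medians are therefore no readout of cAMP. Of 117 matched genes, 81 were tested and 19 were at 0 in every library, as were 11390 of all 31388 genes. limma called 0 of the 81, where it called 0.194% of all tested genes. The counts were also 0 with the pair as a block (0.417% of all genes) and with limma-voom (0.173% of all genes). Since these shares are so low, nothing is read from the counts of 0. At an unadjusted p under 0.05, limma found 4 of 81 (2 higher and 2 lower), where 7.06% of all tested genes reached it, limma-voom found 4 (7.52% of all genes), and the block found 8 (9.23% of all genes). The median log2 fold change of the list was 0.16, beside 0.20 for all tested genes, and 51 of its genes were above 0 and 30 below, where 61.3% of all tested genes were above 0. The groups did not overlap in 4 of the 81 (*prkacbb*, *gnb1a*, *pde4ba* and BVES), beside 3.97% of all tested genes.

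The 4 pathway genes at an unadjusted p under 0.05 included another PKA gene. *prkacbb*, a catalytic beta subunit, is on 2 rows, and on the row ENSDARG00000098844 its values were 106, 90.9, 68.2 and 156 in *tbx5a*+ libraries 2, 8, 9 and 10, against 1.70, 0, 22.3 and 45.5 in *tbx5a*- libraries. These groups did not overlap, as in 2.32% of all tested genes with the *tbx5a*+ side higher, and the log2 fold change was 3.79 (SE 1.07, limma adjusted p = 0.29, or 0.11 with the block). On the row ENSDARG00000059125 it had values of 228, 349, 301 and 322 in *tbx5a*+ libraries and 555, 231, 308 and 232 in *tbx5a*- libraries, with a log2 fold change of -0.06 (SE 0.32). Since the reads of 1 gene can be split between its rows, the level of *prkacbb* on either row is uncertain.

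Anchoring proteins hold PKA at particular sites of the cell, and 2 of them were among these 4 genes, on opposite sides. *akap12b*, whose mammalian counterpart gravin is a scaffold that binds PKA, had values of 28.7, 118, 22.9 and 63.0 in *tbx5a*+ libraries 2, 8, 9 and 10, against 349.8, 169, 87.7 and 297 in *tbx5a*- libraries. It was lower in *tbx5a*+ cells in each pair, though *tbx5a*+ library 8 was above *tbx5a*- library 9, and its log2 fold change was -2.05 (SE 0.56, limma adjusted p = 0.28, or 0.052 with the block). *akap1b*, whose mammalian counterpart sits on the outer mitochondrial membrane, had values of 917, 512, 685 and 905 in *tbx5a*+ libraries, against 251, 517, 401 and 646 in *tbx5a*- libraries, with a log2 fold change of 0.78 (SE 0.29, limma adjusted p = 0.58). The fourth gene, *rgs2*, a regulator that shortens G protein signals, had values of 3.08, 0, 8.60 and 0 in *tbx5a*+ libraries, against 54.8, 48.0, 43.9 and 8.59 in *tbx5a*- libraries. Its highest *tbx5a*+ value and lowest *tbx5a*- value were within 1 read of each other, and its log2 fold change was -3.72 (SE 1.33, limma adjusted p = 0.57). These 4 genes, the 4 whose groups did not overlap, POPDC3 and the receptors named below besides *adora2ab* were chosen for description after their values were seen.

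**Figure D4:**
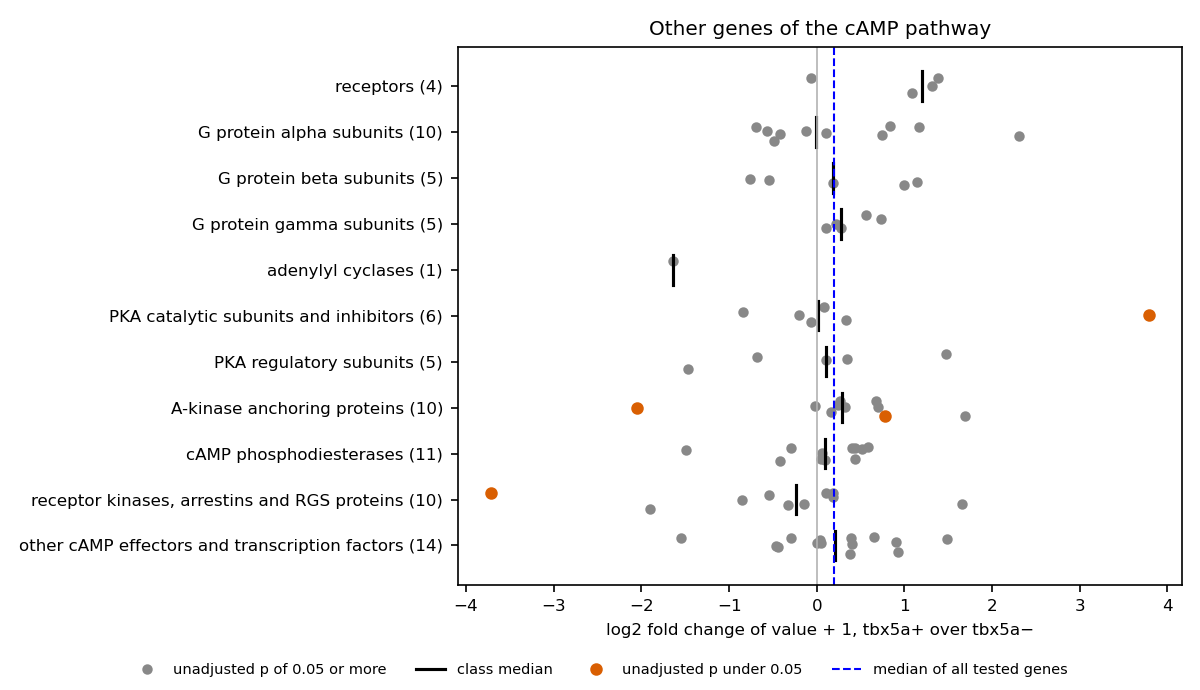
log2 fold change of value + 1 (horizontal axis, *tbx5a*+ over *tbx5a*-) of the 81 tested genes of the cAMP pathway list, 1 point per gene by class (number tested in parentheses), with the class median as a black bar and the median of all tested genes (0.20) as a dashed line. The classes with 5 or more genes have medians between -0.24 and 0.29, and the 4 orange points (unadjusted p under 0.05) are *prkacbb*, *akap1b*, *akap12b* and *rgs2*.

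By class, the G proteins were spread on both sides of 0. Of 10 tested alpha subunits other than *gnas*, 5 were above 0 and 5 below (median -0.01), and the one with the highest mean value, *gnai1*, an inhibitory subunit, had a log2 fold change of -0.12 (SE 0.22). Of 5 beta subunits 3 were above 0 (median 0.18). *gnb1b*, with the highest mean value of these, had a log2 fold change of 0.18 (SE 0.22), while *gnb1a* did not overlap between groups, at 206 to 217 in *tbx5a*+ and 241 to 423 in *tbx5a*- libraries, with a log2 fold change of -0.54 (SE 0.31, limma adjusted p = 0.74). The 5 tested gamma subunits had fitted log2 fold changes of 0.10 to 0.73 (median 0.28), each within 1 SE of 0. GNG5, with the highest mean value of these, had the lowest of them, 0.10 (SE 0.64), and its mean was 57.5 in *tbx5a*+ and 62.7 in *tbx5a*- cells. *gng13a*, the paralog of *gng13b*, was at 0 in all 8 libraries.

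The other receptors and cyclases were few. Of 7 matched receptors 4 were tested, with a median of 1.2, and the one with the highest mean value, *adora2ab*, an adenosine receptor that couples to the stimulatory G protein, had values of 71.5, 41.4, 97.7 and 60.5 in *tbx5a*+ libraries 2, 8, 9 and 10, against 38.5, 74.6, 131 and 56.9 in *tbx5a*- libraries. Its log2 fold change was -0.07 (SE 0.57). The median of 1.2 rested on ADORA2B, ADORA1 (ENSDARG00000075694) and CHRM2, at 1.32, 1.09 and 1.38 (SE 1.37, 1.18 and 1.23). Each of these receptors was at 0 in *tbx5a*- library 2. Their means were 5.15, 33.9 and 29.6 in *tbx5a*+ cells and 2.67, 33.65 and 24.7 in *tbx5a*- cells. Of 8 matched cyclases that are not members, 1 passed the filter, ADCY2 (ENSDARG00000058392), with values of at most 13.4 in *tbx5a*+ and 49.5 in *tbx5a*- libraries and a log2 fold change of -1.64 (SE 1.43).

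Downstream of cAMP, the phosphodiesterases break it down and the Popeye domain proteins bind it. No gene of either group was called by limma, where 0.194% of all tested genes were called. Of 11 phosphodiesterases 8 were above 0 (median 0.09). *pde4ba*, with the highest mean value of them, had values of 2186, 2425, 2119 and 2297 in *tbx5a*+ libraries 2, 8, 9 and 10, against 1138, 2097, 1591 and 2029 in *tbx5a*- libraries. The groups did not overlap, by a margin of 2119 in *tbx5a*+ library 9 over 2097 in *tbx5a*- library 8, and the log2 fold change was 0.44 (SE 0.21, limma adjusted p = 0.71). Among 14 effectors and transcription factors, 9 were above 0 (median 0.21). POPDC2 was at 3223 to 5892 in *tbx5a*+ and 2566 to 4202 in *tbx5a*- libraries with a log2 fold change of 0.40 (SE 0.21, limma adjusted p = 0.72). BVES, of the same family, was at 1725 to 2259 in *tbx5a*+ and 1433 to 1557 in *tbx5a*- libraries without overlap, with a log2 fold change of 0.39 (SE 0.19, limma adjusted p = 0.72). POPDC3, the third Popeye gene, was at 52.2 to 81.5 in *tbx5a*+ and 21.8 to 146 in *tbx5a*- libraries, and in 3 of 4 pairs lower in *tbx5a*+ cells. Its log2 fold change was -0.44 (SE 0.60, limma adjusted p = 0.90).

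The remaining classes held the PKA subunits and the proteins that place PKA or switch off the receptors. Of 6 PKA catalytic subunits and inhibitors 3 were above 0 (median 0.01), and the inhibitor PKIG was at 0.08 (SE 0.27). Of 5 regulatory subunits 3 were above 0 (median 0.10), with PRKAR2A (ENSDARG00000033184) at 0.34 (SE 0.25). Of 10 anchoring proteins 8 were above 0 (median 0.29), and *akap13*, with the highest mean value of the class, had a log2 fold change of 0.16 (SE 0.19). Of 10 receptor kinases, arrestins and RGS proteins 4 were above 0 (median -0.24), with GRK4 at 0.19 (SE 0.25). The symbols *grk2*, *adrbk1* and *adrbk2* of this class had no match, so *grk2* is not covered.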

How the data were processed

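The authors sorted cells with a cell sorter, sequenced libraries as 60-base single reads and quantified genes with RSEM after trimming with cutadapt. Per the labels' processing notes these were CASAVA 1.8.2, RSEM 1.2.3 and the build Zv9, whereas the methods name a later RSEM and Ensembl release. It was not given in the sources used here which of them was run. For that reason the text gives no positions. The authors deposited a normalized signal for each gene in each library, not counts: 71.1% to 77.7% of values below 60 lay within 0.0051 of a whole multiple of the value of 1 read. Dividing by that value gave the estimated reads used for limma-voom.

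The methods' test was for counts, so limma 3.58.1 (R 4.3.3) was fitted to log2(value + 1) with a variance trend, over genes that reached 1 CPM in 2 or more libraries. p-values were adjusted by Benjamini-Hochberg over all genes. voom took the library sizes implied by the value of 1 read. The code was tested on simulated data. The numbers of the labels were used to pair the libraries, on the inference that both populations of a number were sorted from the same pooled hearts. Deviations from the population means correlated by 0.0428 to 0.089 within the 4 pairs. Replicates are separate pools of hearts.

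Alternatives were the replicate block, voom, scaling, pseudocounts of 0.5 and 5, filters, a robust fit and leaving out each library. The members and lists were chosen with earlier results of these data known. Besides the members, the text names the highest pathway gene of each class, any pathway gene called, the 5 genes most like *adcy6b* and markers of other cell types, plus genes said to be chosen after their values were seen. All value columns were mapped to a library. Among rows not at 0 in every library, 2920 share all 8 values with another row, and 0 of them are members. The pathway list had 15 symbols without a match. 1 further gene of the set is not reported here.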

Additional observations from a re-analysis of the deposited data

Results flagged for a closer look

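In 1 group of 4 libraries a single library lay far from the other 3 by Dixon's ratio, the gap to the nearest library over the whole range. *adrb1* in *tbx5a*- cells was at 49.81 in library 10, against 0, 3.07 and 0 in libraries 2, 8 and 9 (ratio 0.938). In all, 16 groups of members were examined. By chance about 1 in 20 groups of normally distributed values would be flagged. That rate need not hold for *adrb1*, with few reads and values of 0, so nothing is read from the flag. The 4 *tbx5a*- libraries together held an estimated 61 reads of *adrb1*.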

How the results depend on the processing

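The direction of *adcy6b* and *gng13b* was the same under all 18 alternatives. Each alternative refits all or part of the libraries from which both genes were chosen, so no support is drawn from this. Leaving out 1 library at a time gave log2 fold changes of 1.0 to 2.64 for *adcy6b* and -3.24 to -2.69 for *gng13b*. With the replicate block, which uses the pairing by number, 19 genes were called higher and 39 lower instead of 1 and 26, and 2 members instead of 1. Genes called higher numbered 2 with CPM scaling and 3 with limma-voom, a pseudocount of 5, the robust fit or upper quartile scaling, and 1 to 8 with 1 library left out. Genes called lower numbered 39 with CPM scaling, 32 with a pseudocount of 5, 30 with the robust fit, 21 with limma-voom or upper quartile scaling, 18 to 25 with 1 library left out and 5 without *tbx5a*- libraries 2 and 9, an alternative added after seeing the data. The pathway median of 0.16 was 0.39 with upper quartile scaling, when the median of all genes was 0.458, and -0.02 with CPM scaling, when it was 0.016. It lay between 0.07 and 0.22 with 1 library left out. No gene of the pathway list, which leaves out the members, was called under any alternative. The main fit called 0.194% of all tested genes, so nothing is read from this. The cause of the shifts between alternatives was not tested. The signs of *adcy5*, *adcy6a*, *adcy9* and *adrb1* each changed under 1 or 2 alternatives. Few reads stood behind *adrb1* and *adcy6a*, at 61 to 85 per population, and behind *adcy6b* in *tbx5a*- library 9, at 5. That library had an estimated 7262615 reads in all. *tbx5a*- library 2, with 7149173, held 78 reads of *adcy6b*. The part of depth in these values was not tested.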
